A study of Mus musculus with 7 samples.

Results

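The plasma cell program was followed here through 10 genes of mouse lung: the joining chain gene Jchain and 9 regulators, secretory factors, survival receptors and ligands of antibody-secreting cells, with no immunoglobulin gene among them. The members were chosen by symbol (Jchain, Mzb1, Prdm1, Irf4, Sdc1, Tnfrsf17, Tnfrsf13b, Derl3, Pou2af1 and Tnfsf13) and all 10 were found among the 28828 entries of the deposited count table. RNA sequencing of lung tissue compared 3 libraries from mice with a knockout of Scgb3a2 (KO3, KO4 and KO5) with 4 wild type libraries (WT2, WT3, WT4 and WT6), all of the C57BL/6 strain. Scgb3a2 encodes a secreted protein of airway secretory cells. The labels state neither age nor sex, nor how the allele was made, nor whether the libraries stem from separate mice. All p-values therefore refer to the spread among libraries, which may be technical. The targeted gene had 1.28, 1.21 and 2.67 CPM (counts scaled to the library size, with TMM factors) in KO3, KO4 and KO5, against 195 to 292 CPM in wild type libraries (log2 fold change -7.20 ± 0.27 SE, edgeR adjusted p = 8.05e-07).

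A plasma cell is a B lymphocyte that has turned into a factory for secreted antibody. The switch is driven by the transcription factors IRF4 and BLIMP-1 (encoded by Prdm1), the enlarged endoplasmic reticulum needs chaperones and a degradation route for misfolded chains, and survival depends on the cytokines APRIL and BAFF. In mucosal tissue such as the airway wall, plasma cells make mostly IgA, whose dimers are held together by the joining chain and are carried across epithelium by the polymeric immunoglobulin receptor. Several members are not private to plasma cells: Sdc1 is also made by epithelium, Irf4 and Prdm1 by T cells and myeloid cells, and Tnfsf13 by myeloid cells.

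Libraries held 13071262 to 16480006 counts, and the upper limit set by a count of 0 (3 counts) corresponded to 0.18 to 0.22 CPM. Intervals and limits of this kind cover counting error only. The lung markers Sftpc, Scgb1a1 and Nkx2-1 were high in every library. The summed level of 10 epithelial markers was 13332 CPM in KO5, against 23711 and 21491 CPM in KO3 and KO4. In wild type it was 15919 CPM in WT6, against 20177 to 23979 CPM in WT2, WT3 and WT4. Sftpc and Scgb1a1 made up 94.8% to 96.3% of these sums. Over the other 8 markers the sums were 692 CPM in KO5, against 933 and 930 CPM in KO3 and KO4, and 732 CPM in WT6, against 754 to 1051 CPM in WT2, WT3 and WT4. Single markers differed, since Cldn7 was not low in KO5 (18.8 CPM, near the 18.7 CPM of KO4) or in WT6 (23.4 CPM, near the 23.0 CPM of WT4). The B cell marker sum was highest of the genotype in KO5 (572 CPM) and in WT6 (281 CPM). Whether sampling of these lungs differed was not tested.

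Jchain (chr5:88519809-88527891, minus strand, GRCm38) had the largest difference among the members. The joining chain links IgA into dimers and IgM into pentamers. Its counts were 400, 1146 and 4324 in KO3, KO4 and KO5, and 137, 137, 77 and 174 in WT2, WT3, WT4 and WT6. The corresponding levels were 26.98, 72.8 and 312 CPM in knockout lung, against 8.24, 8.73, 5.69 and 12.2 CPM in wild type lung. Every knockout library lay above every wild type library, and the knockout libraries differed far more among themselves than the wild type libraries did. The highest knockout value was 11.6 times the lowest, while the highest wild type value was 2.15 times the lowest. Over the wild type mean, KO3 was 3.10-fold, KO4 8.35-fold and KO5 35.8-fold higher.

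The means were 137 ± 153 CPM in knockout lung (SD, n = 3) and 8.72 ± 2.69 CPM in wild type lung (SD, n = 4), a log2 fold change of 3.97 ± 0.91 (SE). In edgeR's quasi-likelihood test, adjusted by the Benjamini-Hochberg method over all 19832 genes tested, Jchain did not pass (unadjusted p = 0.00564, adjusted p = 0.99985). In DESeq2, which estimates the spread between libraries differently, it passed with the same fold change (adjusted p = 0.000959). Without KO5, the library with the highest value, the log2 fold change was 2.52 ± 0.45 (SE, edgeR adjusted p = 0.812), and without KO3 it was 4.46 (adjusted p = 0.210). In bulk tissue, a change in the number of cells of a type and a change in RNA per cell cannot be told apart, here or for any member below.

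On a scale that allows levels of different genes to be compared (CPM per kilobase of exon), Jchain ranked 4415, 1262 and 161 among 19692 genes in KO3, KO4 and KO5. In wild type libraries it ranked between 8459 and 12211. In KO5, joining chain transcripts were therefore among the more abundant messages of the lung.

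The RefSeq promoter window of Jchain, from 250 bases before to 50 bases after the gene start (chr5:88527848-88528147, minus strand, GRCm38.p6), is shown because this gene had the largest difference. The capitals mark the E-box CAGGTG, read on the opposite strand.
Jchain: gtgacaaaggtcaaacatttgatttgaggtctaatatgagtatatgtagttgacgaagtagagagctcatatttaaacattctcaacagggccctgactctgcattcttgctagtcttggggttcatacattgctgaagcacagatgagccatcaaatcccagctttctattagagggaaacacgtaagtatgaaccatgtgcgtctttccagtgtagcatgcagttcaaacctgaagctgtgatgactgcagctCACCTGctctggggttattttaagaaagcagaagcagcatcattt

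**Figure D1:**
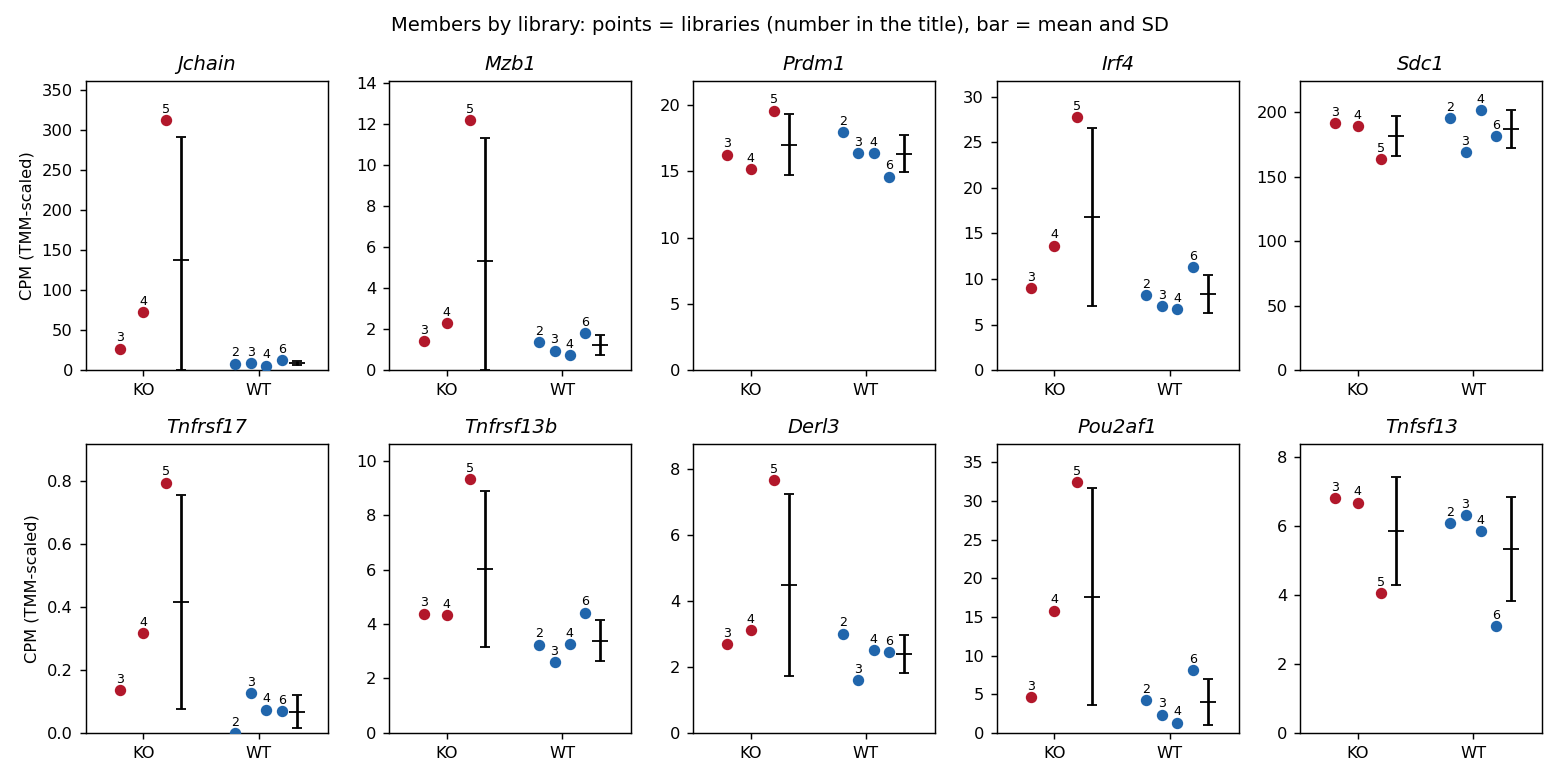
Level of each of the 10 members in every library, in CPM on a linear axis from 0, with knockout (KO) libraries left of wild type (WT) libraries; points are single libraries labelled by number, and the black bar gives the mean and SD, cut at 0 where the SD exceeds the mean. In Jchain the knockout points lie at 26.98, 72.8 and 312 CPM, all above the highest wild type point at 12.2 CPM, whereas Sdc1 and Prdm1 overlap between genotypes.

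The secretory factors were higher in KO5 and close to wild type in KO3. Mzb1 (chr18:35647267-35649367), a chaperone of the endoplasmic reticulum that assists antibody assembly in B and plasma cells, had 1.42, 2.29 and 12.2 CPM in KO3, KO4 and KO5. Wild type values were 1.38, 0.956, 0.739 and 1.83 CPM in WT2, WT3, WT4 and WT6, so that KO3 lay inside the wild type range and KO4 and KO5 above it. The log2 fold change was 2.09 ± 0.74 (SE, edgeR unadjusted p = 0.0222, adjusted p = 0.99985), and 0.59 without KO5.

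Some limits of annotation apply to Mzb1. Of its exon bases, 57.2% are shared with an entry spelled SPATA24 on the same strand, and the way such reads were assigned is not stated. The level of that entry is not given here. The entry spelled Spata24 was not among those sharing exon bases with Mzb1. Spata24 had 5.60, 4.57 and 3.54 CPM in knockout libraries against 4.63 to 6.25 CPM in wild type libraries, with a log2 fold change of -0.28. Mzb1 also lies on the chromosome of the targeted gene, 8.11 Mb from Scgb3a2. The part of either fact in the result was not tested.

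Derl3 (chr10:75893413-75895941) encodes a derlin of the pathway that exports misfolded proteins from the endoplasmic reticulum for degradation. Derl3 stood at 2.70, 3.11 and 7.66 CPM in the knockout libraries KO3, KO4 and KO5, against 3.01, 1.59, 2.51 and 2.46 CPM in WT2, WT3, WT4 and WT6. KO3 lay below WT2, KO4 just above it, and KO5 stood apart. The log2 fold change of 0.90 ± 0.37 (SE) did not pass in edgeR (unadjusted p = 0.0323, adjusted p = 0.99985), and it was 0.28 without KO5.

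Among the transcriptional regulators, Irf4 and Pou2af1 had higher means in knockout lung and Prdm1 did not. Irf4 (chr13:30749226-30766976), required for plasma cell formation, had 9.04, 13.7 and 27.8 CPM in KO3, KO4 and KO5. It had 8.24, 7.01, 6.72 and 11.3 CPM in WT2, WT3, WT4 and WT6. KO3 fell inside the wild type range, below WT6, and KO4 and KO5 above it. Irf4 differed by a log2 fold change of 1.01 ± 0.35 (SE, edgeR unadjusted p = 0.0181, adjusted p = 0.99985) and 0.45 without KO5.

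Pou2af1 (chr9:51213708-51240080) encodes OCA-B, a B lineage coactivator that binds the octamer factors on immunoglobulin promoters. It had 4.59, 15.8 and 32.4 CPM in KO3, KO4 and KO5, against 4.21, 2.36, 1.33 and 8.14 CPM in WT2, WT3, WT4 and WT6. This was the tested member with the widest wild type spread, with WT6 at 6.12 times WT4, and KO3 lay below WT6. The log2 fold change was 2.13 ± 0.79 (SE, edgeR unadjusted p = 0.0347, adjusted p = 0.99985) and 1.35 without KO5.

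The promoter window of Pou2af1 (chr9:51213440-51213739, plus strand, GRCm38.p6, RefSeq) is shown because it held the only match among the members to the unfolded protein response element. The capitals mark that match, which reads CCACGTCA on the opposite strand and starts 61 bases before the gene start.
Pou2af1: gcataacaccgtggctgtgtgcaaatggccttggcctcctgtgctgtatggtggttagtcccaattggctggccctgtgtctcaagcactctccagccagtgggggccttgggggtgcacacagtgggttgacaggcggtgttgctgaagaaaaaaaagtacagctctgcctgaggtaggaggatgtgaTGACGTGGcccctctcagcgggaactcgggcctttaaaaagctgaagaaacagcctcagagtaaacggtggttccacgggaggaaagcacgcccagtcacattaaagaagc

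Prdm1 (chr10:44437177-44528501), whose product BLIMP-1 silences the B cell program, had 16.3, 15.2 and 19.6 CPM in KO3, KO4 and KO5. Wild type libraries had 18.0, 16.4, 16.4 and 14.6 CPM in WT2, WT3, WT4 and WT6. The groups overlapped, with KO5 highest and WT6 lowest. Prdm1 had a log2 fold change of 0.06 ± 0.14 (SE, edgeR unadjusted p = 0.687).

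Sdc1 (chr12:8771323-8793715) encodes syndecan-1, also known as CD138, the surface proteoglycan used to sort plasma cells and abundant on epithelium. Its levels were 192, 189 and 164 CPM in KO3, KO4 and KO5, against 196, 169, 202 and 181 CPM in WT2, WT3, WT4 and WT6. KO5, with the highest Jchain level, had the lowest Sdc1 level of all libraries and the lowest epithelial marker sum, whereas WT3, with the lowest Sdc1 level among wild type libraries, had the highest such sum (23979 CPM). Sdc1 had a log2 fold change of -0.04 ± 0.11 (SE, edgeR unadjusted p = 0.692).

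The survival receptors were measured at low levels. Tnfrsf13b (chr11:61126755-61149372) encodes TACI, a receptor for APRIL and BAFF on B and plasma cells. It had 4.38, 4.32 and 9.32 CPM in KO3, KO4 and KO5, against 3.25, 2.61, 3.25 and 4.42 CPM in WT2, WT3, WT4 and WT6. Only KO5 lay above the wild type range. For Tnfrsf13b the log2 fold change was 0.82 ± 0.30 (SE, edgeR unadjusted p = 0.0177, adjusted p = 0.99985) and 0.37 without KO5.

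Tnfrsf17 (chr16:11313812-11320074) encodes BCMA, the APRIL receptor most restricted to plasma cells. It had 2, 5 and 11 counts in KO3, KO4 and KO5, and 0, 2, 1 and 1 counts in WT2, WT3, WT4 and WT6. It was the 1 member that the filter on low counts removed from the test. Summed over libraries, the 18 knockout counts and 4 wild type counts gave a ratio of 6.09, knockout over wild type, with a 95% exact counting interval of 2.01 to 24.7 that leaves out the spread between libraries. KO3, with 2 counts, could not be told from wild type at this depth.

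Tnfsf13 (chr11:69682846-69685784) encodes APRIL itself. It had 6.81, 6.67 and 4.05 CPM in KO3, KO4 and KO5, against 6.07, 6.31, 5.84 and 3.09 CPM in WT2, WT3, WT4 and WT6. KO3 and KO4 lay above the wild type range and KO5 inside it. KO5 and WT6 were the low libraries of their groups, so that the ligand was low where most other members were high. The log2 fold change was 0.13 ± 0.27 (SE, edgeR unadjusted p = 0.629). Of its exon bases, 60.0% are shared with Tnfsfm13, a read-through transcript on the same strand, which was counted separately at 2.02, 2.80 and 2.02 CPM in KO3, KO4 and KO5 against 1.08 to 1.98 CPM in wild type libraries.

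Set in order per kilobase of exon, the means in knockout lung were 54.6 CPM per kb for Jchain, 47.7 for Sdc1, 6.91 for Pou2af1, 4.37 for Mzb1 and 3.57 for Tnfsf13. Irf4 (3.43), Prdm1 (3.05), Derl3 (2.25), Tnfrsf13b (2.12) and Tnfrsf17 (0.510 CPM per kb) followed. In wild type lung, Sdc1 stood alone at 49.1 CPM per kb, followed by Jchain (3.46), Tnfsf13 (3.25) and Prdm1 (2.93), whose ranges over libraries overlapped. With lower means, Irf4 (1.70), Pou2af1 (1.57), Derl3 (1.20), Tnfrsf13b (1.19) and Mzb1 (1.01 CPM per kb) also had overlapping ranges, and Tnfrsf17 was lowest at 0.083 CPM per kb. These 2 groups of members were not separate. In WT6, Pou2af1 (3.19 CPM per kb) lay above Prdm1 (2.62) and Tnfsf13 (1.89). The knockout order rested on KO5: Jchain lay below Sdc1 in KO3 (10.7 against 50.3 CPM per kb) and KO4 (28.9 against 49.7), and Mzb1 in KO3 (1.17) lay below Tnfsf13, Irf4, Prdm1, Derl3 and Tnfrsf13b. The ranges of the members from Pou2af1 to Tnfrsf13b overlapped in knockout lung. Jchain thus shared its wild type level with Tnfsf13 and Prdm1 and had a knockout mean near that of Sdc1, although its knockout values ran from 10.7 to 124 CPM per kb.

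Counted over the members, edgeR called none of the 9 tested, where it called 7 of all 19832 genes (0.0353%). DESeq2 called 1 member, Jchain, where it called 0.237% of genes. An unadjusted edgeR p under 0.05 with a higher knockout mean was found for 6 of the 9 tested members (Jchain, Mzb1, Irf4, Tnfrsf13b, Derl3 and Pou2af1), against 1.82% of all genes, and none was found in the lower direction, against 1.05%. The median log2 fold change of the 9 tested members was 0.90, against -0.01 over all genes tested. Members may share cells, come from the same libraries and are not independent of each other. They were also chosen with earlier results of these data known, so the shares are a description only.

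The share of members outside the wild type range depended on the library. KO5 lay above all wild type libraries in 8 of the 10 members (7 of the 9 tested), against 21.6% of all genes tested. KO4 and KO5 together did so in 6 of the 10 members, against 5.70% of genes. All 3 knockout libraries did so in 1 of the 9 tested members, Jchain, against 2.11% of all genes tested. The untested Tnfrsf17 did so only through library scaling, since KO3 and WT3 both had 2 counts (0.135 against 0.127 CPM). KO3 therefore lay above wild type in Jchain and was within or at the edge of the wild type range in most other members. In Tnfsf13, KO3 (6.81 CPM) and KO4 (6.67 CPM) but not KO5 lay above the highest wild type value (6.31 CPM). With KO5 left out, the number of tested members with an unadjusted p under 0.05 was 1, Jchain, against 3.11% of all genes.

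**Figure D2:**
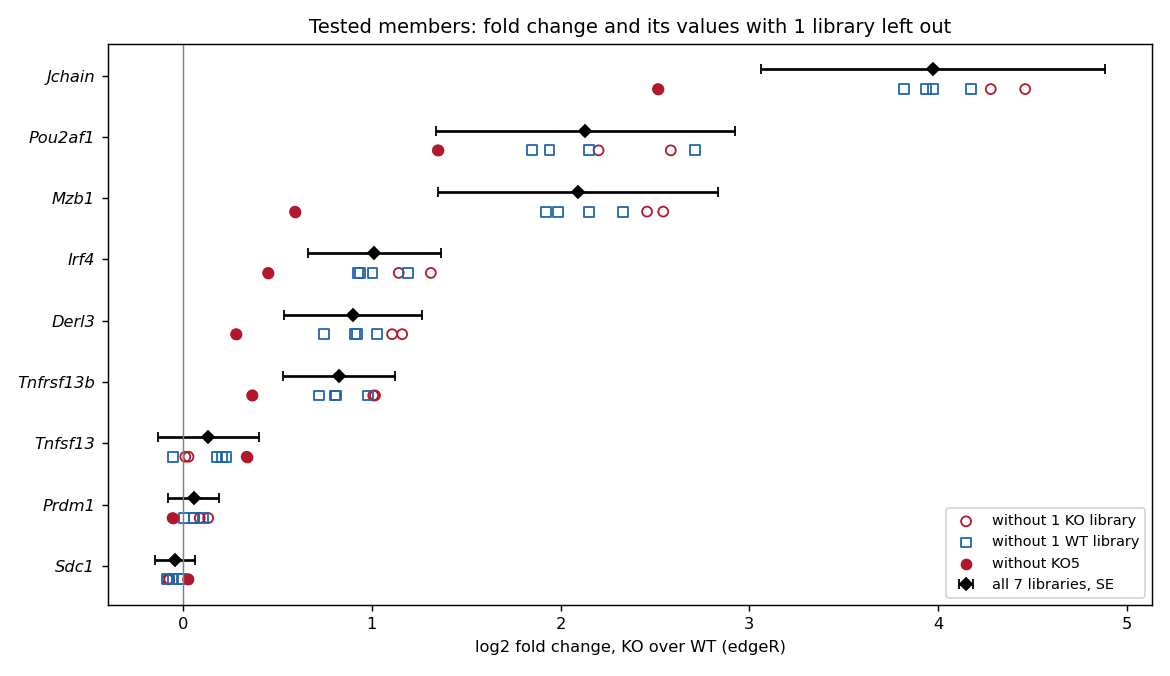
Log2 fold change of each tested member, knockout over wild type, from edgeR; black diamonds with SE bars use all 7 libraries, open circles leave out 1 knockout library, open squares leave out 1 wild type library and filled circles leave out KO5. Leaving out KO5 moves Jchain to 2.52 from 3.97 and Mzb1 to 0.59 from 2.09, the lowest points of both genes. Tnfsf13 moves the other way, to 0.34 from 0.13, and Prdm1 and Sdc1 stay between -0.09 and 0.13.

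Jchain was next set against the immunoglobulin transcripts of the same library, a ratio that needs no scaling between libraries. The shared values were large: Igha, the IgA heavy chain, had 122, 293 and 892 CPM in KO3, KO4 and KO5 against 38.1 to 43.4 CPM in wild type libraries, and Igkc, the kappa light chain, had 133, 437 and 569 CPM against 26.5 to 42.1 CPM. The tested IgG heavy chains, Ighg2b and Ighg2c, differed more than Igha (log2 fold change 3.43), although edgeR called none of these genes. DESeq2 called 4 of the 9 tested constant region genes (background 0.237%). Its adjusted p was 1.75e-07 for Igkc, 3.52e-05 for Ighg2c, 0.000109 for Igha and 0.000548 for Ighg2b. Ighg2b had 23.7, 104 and 410 CPM in KO3, KO4 and KO5 against 1.55 to 9.48 CPM in wild type libraries (log2 fold change 5.40). Ighg2c had 7.76, 95.6 and 170 CPM against 0.295 to 2.81 CPM (log2 fold change 6.10). Ighg1, which the filter on low counts removed from the test, had 9, 1005 and 1305 counts in KO3, KO4 and KO5. It had 3 or 4 counts in each wild type library. The make-up of the summed constant regions therefore differed between libraries. For every 1000 counts of the 12 constant region genes there were 80.4, 67.4 and 134 Jchain counts in KO3, KO4 and KO5. Wild type libraries had 59.96, 64.3, 54.1 and 79.8 Jchain counts per 1000 in WT2, WT3, WT4 and WT6. KO3 and KO4 were close to the wild type libraries, KO4 below WT6, and KO5 stood above all others. The mean log2 difference was 0.49, and an exact two-sided permutation test over the libraries gave p = 0.114, where the smallest p that the 35 splits allow is 0.0286. Without KO5 the difference was 0.20.

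The denominator affected this ratio. Per 1000 Igha counts there were 221, 249 and 350 Jchain counts in KO3, KO4 and KO5, against 141 to 282 in wild type libraries (exact permutation p = 0.314). Per 1000 Igkc counts there were 203, 167 and 549 in knockout libraries, against 146 to 460 in wild type libraries (exact permutation p = 0.686), with WT6 and KO5 the highest of their groups. Per 1000 counts of Igha and Ighm, the heavy chains of the classes that the joining chain is known to join, there were 176, 213 and 310 in KO3, KO4 and KO5, against 99.6 to 126 in wild type libraries. These groups did not overlap (log2 difference 1.002, exact permutation p = 0.0286, 0.114 when adjusted over the 4 denominators tried). This last denominator was chosen after the count table had been seen. Ighm, which unswitched B cells also make, had 31.7, 48.3 and 117 CPM in KO3, KO4 and KO5 against 36.9, 33.7, 16.6 and 53.9 CPM in WT2, WT3, WT4 and WT6.

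**Figure D3:**
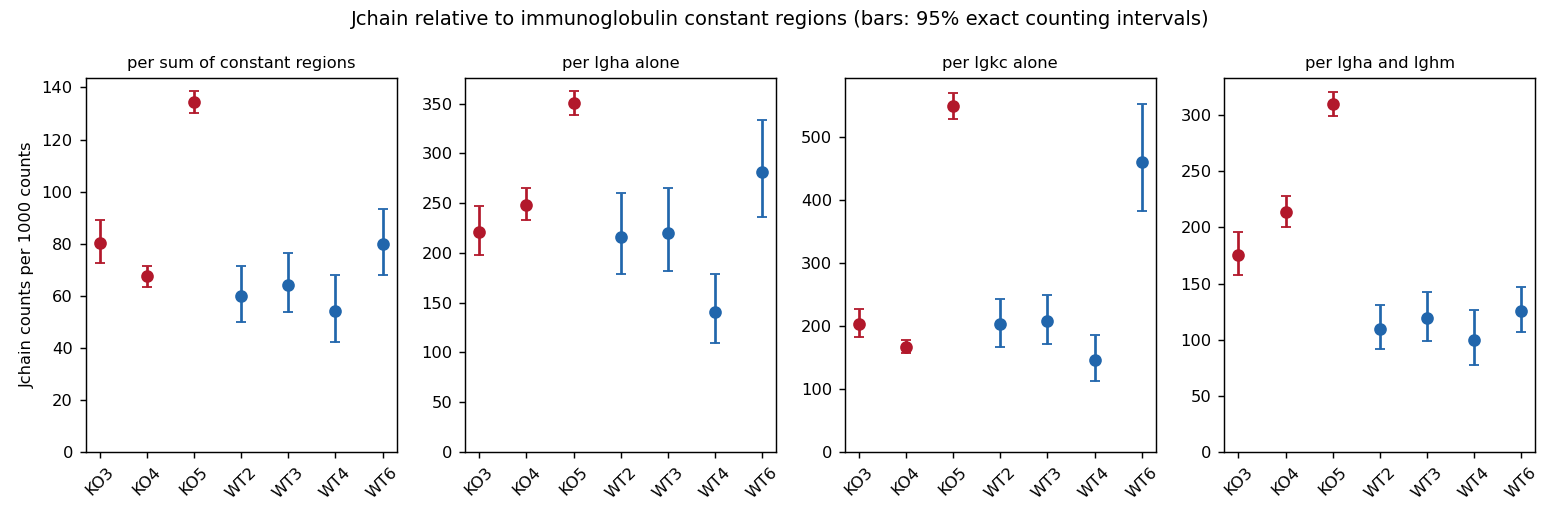
Jchain counts per 1000 counts of 4 immunoglobulin denominators in each library, knockout libraries in red left of wild type libraries in blue, on linear axes from 0; bars are 95% exact counting intervals. Per 1000 counts of all constant regions KO3 and KO4 (80.4 and 67.4) lie among the wild type points (54.1 to 79.8) or at their edge, and per 1000 counts of Igha and Ighm all 3 knockout points lie above the wild type points.

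The genes most like Jchain across libraries were ranked by the Pearson correlation of log2 CPM over the 7 libraries among 17835 genes with a mean of at least 1 CPM. This is a description: the points share the genotype difference and the high KO5 values. Of the 10 genes ranked highest, 4 were immunoglobulin genes (Ighv5-17, Igha, Ighv3-6 and Ighg2b), against 40 among all genes compared. The minimum of 1 CPM was taken over all 7 libraries. Ighv5-17, Ighv3-6 and Ccl20 had wild type means of 0.249, 0.409 and 0.216 CPM and passed only through their knockout values. Genes that pass in this way tend to follow Jchain by that choice, so these counts measure no enrichment. Pigr, the epithelial receptor that carries joining chain-bearing IgA and IgM into the airway lumen, ranked second with r = 0.993. It had 69.8, 90.97 and 146 CPM in KO3, KO4 and KO5, against 41.9, 39.5, 35.9 and 51.8 CPM in WT2, WT3, WT4 and WT6, without overlap. The others were Bora (a mitotic kinase activator), Cd177 (a neutrophil surface protein), Ccl20 (the ligand of Ccr6 on lymphocytes and dendritic cells), Myo5a (a myosin motor) and Pik3cg (a lipid kinase of leukocytes), with r from 0.979 to 0.984. Among the members, r with Jchain was 0.943 for Irf4, 0.935 for Tnfrsf17, 0.925 for Mzb1, 0.914 for Pou2af1, 0.898 for Tnfrsf13b and 0.840 for Derl3. It was 0.414 for Prdm1, -0.19 for Tnfsf13 and -0.55 for Sdc1.

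Other genes of the plasma cell pathway were read from lists of known function. Of 18 tested genes of the other plasma cell list, edgeR called none, and 2 had an unadjusted p under 0.05 with a higher knockout mean (background 1.82%). They were Eaf2, an elongation factor partner of plasma cells, at 1.28, 2.35 and 3.18 CPM in the 3 knockout libraries against 0.886 to 1.27 CPM in wild type libraries, and the costimulatory receptor Cd28, with 3.17, 4.95 and 8.46 CPM against 2.29 to 3.51 CPM. The list's median log2 fold change was 0.10. Xbp1, the transcription factor of the secretory apparatus, had 134, 146 and 194 CPM in KO3, KO4 and KO5 against 142 to 174 CPM in wild type libraries.

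The general folding machinery of the endoplasmic reticulum, which every secreting lung cell uses, had values near 0. None of its 25 tested genes was called, none had an unadjusted p under 0.05, and the median log2 fold change was -0.0041. Its summed level was 3564 to 3798 CPM in knockout libraries and 3522 to 3826 CPM in wild type libraries. Edem1, a lectin of the degradation route on which Derl3 acts, had 78.6, 84.1 and 128 CPM in KO3, KO4 and KO5 against 74.9 to 99.9 CPM in wild type libraries.

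In the list of the APRIL and BAFF axis and other survival factors, 14 of 20 genes were tested and none was called. An unadjusted p under 0.05 with a higher knockout mean was found for 1 gene, Tnfrsf13c (background 1.82%). This BAFF receptor of B cells had 0.472, 3.56 and 6.14 CPM in KO3, KO4 and KO5, against 1.20, 0.510, 0.148 and 1.26 CPM in WT2, WT3, WT4 and WT6. KO3 lay inside the wild type range, as for most members. The ligand BAFF (Tnfsf13b) had 21.9, 23.8 and 24.0 CPM in knockout libraries and 22.2 to 25.7 CPM in wild type libraries, so that the values of both ligands overlapped between genotypes. The list's median was 0.05, and Il6, Il5, Il5ra, Il10, Il21 and Cd40lg were below the filter. Il21r, the receptor for a helper T cell cytokine that drives plasma cell formation, had 1.82, 4.57 and 15.2 CPM in KO3, KO4 and KO5 against 2.36 to 3.37 CPM in wild type libraries.

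The list of IgA transport and homing had 5 of 11 tested genes with an unadjusted p under 0.05 and a higher knockout mean (background 1.82%). None of them was called by edgeR and 3 were called by DESeq2 (background 0.237%). These were Pigr (log2 fold change 1.27, edgeR adjusted p = 0.406), Ccl20 (3.33, adjusted p = 0.151) and Cxcl13, the chemokine that draws B cells into follicles (2.26, adjusted p = 0.455). Cxcl13 had 4.45, 14.4 and 18.4 CPM in KO3, KO4 and KO5 against 1.92 to 3.30 CPM in wild type libraries. Ccl20 had 12, 29 and 57 counts in KO3, KO4 and KO5. In wild type libraries it had 3 or 4 counts (0.191 to 0.241 CPM), near the limit set by a count of 0. All 3 genes had knockout values above every wild type value, as 2.11% of all genes tested did. In KO3, where most members lay within the wild type range, these genes lay apart from wild type, as Jchain did.

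Markers of other cell types that make members of the list were read beside them. The B cell identity list had a positive log2 fold change in 17 of 18 tested genes (48.0% of all genes), with a median of 1.25. In this list, 7 genes had an unadjusted p under 0.05 with a higher knockout mean (background 1.82%). Its summed level was 224, 333 and 572 CPM in KO3, KO4 and KO5, against 205 to 281 CPM in wild type libraries, so that KO3 was again inside the wild type range. Pax5 and Bach2 of this list are switched off in mature plasma cells, and none of the list was at 0 in all libraries. The T cell list had positive values in 12 of 12 genes (median 0.78), with 7 under an unadjusted p of 0.05 (background 1.82%). Its sum was 41.8, 56.8 and 86.4 CPM in KO3, KO4 and KO5 against 28.3 to 41.8 CPM in wild type libraries. DESeq2 called 1 gene of each list, Cd79a and Cd4 (background 0.237%), and edgeR none. The part of B and T cells in the values of Irf4, Pou2af1, Tnfrsf13b and Mzb1 was not tested.

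The remaining marker lists moved less. The macrophage and dendritic cell list had a median log2 fold change of 0.11 over 13 genes. Its sums were 3201 to 3287 CPM in knockout libraries and 2796 to 3826 CPM in wild type libraries. In each direction 1 gene had an unadjusted p under 0.05 (background 1.82% higher and 1.05% lower). The plasmacytoid dendritic cell list, of interest because these cells also make Mzb1, had a median of 0.07 over 9 tested genes and a sum of 385 to 410 CPM in knockout libraries and 404 to 438 CPM in wild type libraries. Epithelial markers, read beside Sdc1, had a median of -0.06 over 10 genes, with none under an unadjusted p of 0.05. No gene of these lists was called by edgeR or by DESeq2.

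**Figure D4:**
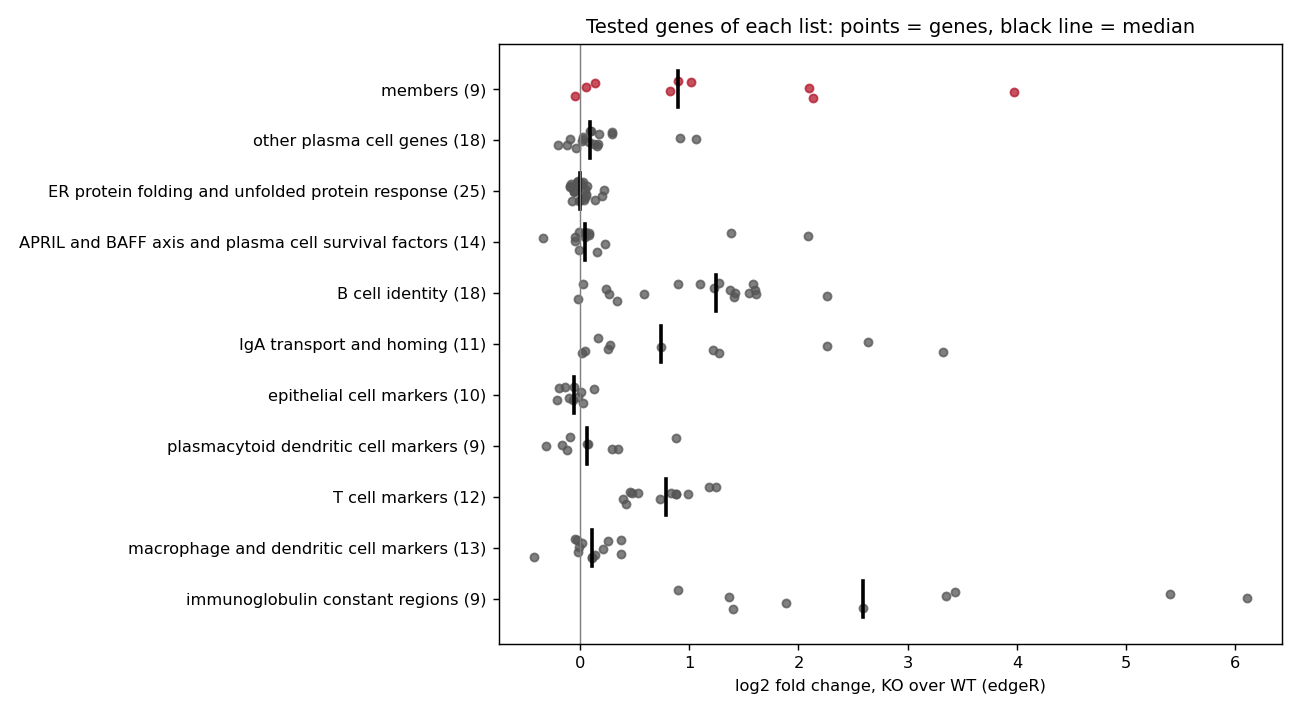
Log2 fold change, knockout over wild type, of each tested gene (points, with the number tested in brackets) of the members and of 10 lists read beside them; black lines are medians. The members (median 0.90), B cell identity (1.25) and immunoglobulin constant region (2.59) lists lie to the right of 0, and the endoplasmic reticulum (-0.0041) and epithelial (-0.06) lists lie around it.

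Promoter windows of 300 bases were found in RefSeq for 9 members and searched on both strands for 4 motifs. The octamer ATGCAAAT, present in 1.74% of all 32851 windows, and the ETS-IRF composite motif, present in 2.72%, had no exact match in any of the 9. The unfolded protein response element CCACGTCA, present in 0.676% of windows, was found in Pou2af1 alone. The E-box CAGGTG, present in 20.2% of windows, was found in 3 members. It lay from base 6 of the transcript in Jchain, and 87 bases before the RefSeq start in Prdm1 and 121 bases before it in Derl3. The Prdm1 window (chr10:44458699-44458998, minus strand) lies inside the GENCODE span of the gene (chr10:44437177-44528501), so its start is not that of the span. The motifs do not overlap, and a match in letters is a description of the sequence and not of a bound factor.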

How the data were processed

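Total RNA of lung was extracted with Trizol and sequenced after standard Illumina library preparation, per the labels. The deposited values are the authors' raw read counts for each gene, without normalization. STAR, DESeq2 and mm10 are named in the submitters' processing notes. How reads were counted, with which annotation and strand setting, is not stated. A letter in the titles between genotype and number was left out of the library names.

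Genes were tested with edgeR 4.0.16 in R 4.3.3 (filter on low counts by genotype, TMM scaling, robust quasi-likelihood test, two-sided, all 7 libraries, genotype as the only term), with p-values adjusted by the Benjamini-Hochberg method over all 19832 genes tested and a threshold of 0.05. SEs were taken from the fold change and the test's F statistic. DESeq2 1.42.0 on the same genes was an alternative. Log2 CPM used a prior count of 2. Further alternatives changed the scaling, the filter and the libraries used. The procedure was checked on simulated counts. Exon lengths and positions came from GENCODE M21 (GRCm38) and promoters from RefSeq. Named genes were all members, up to 4 genes of each list with the smallest p, the genes most like Jchain, Scgb3a2 as the check of genotype, the lung markers Sftpc, Scgb1a1 and Nkx2-1, and Igha, Igkc and Ighm. Xbp1, Tnfsf13b, Ighg1, Spata24 and Tnfsfm13 were chosen after their values were seen. The members and lists were chosen with earlier results of these data known.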

Additional observations from a re-analysis of the deposited data

Results flagged for a closer look

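Tnfsf13, the APRIL gene, had 3.09 CPM in WT6, far below the 5.84 to 6.31 CPM of WT2, WT3 and WT4. The gap to the nearest of them was 0.853 of the range of the group. The 10 members and the Jchain ratio were examined in this way, and chance alone marks about 1 in 20 groups of 4. Other libraries stood apart without a mark, such as KO5 in Tnfrsf13b (9.32 CPM, against 4.38 in KO3 and 4.32 in KO4).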

How the results depend on the processing

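Jchain, Mzb1, Irf4, Tnfrsf13b, Derl3 and Pou2af1 kept a positive log2 fold change under all 15 alternatives, and Jchain was called under 1 of them, DESeq2 (3.97), its range being 2.52 to 4.46. DESeq2 thus called 1 member and 47 genes, against 0 and 7 in edgeR. The number of genes called was 29 with a term for WT6 and KO5, 13 without WT6 and KO5, and 3 to 28 with each library left out in turn (28 without KO3, 4 without KO4, 3 without WT2, WT3 or WT4). WT3 and KO3, and WT4 and KO4, share numbers in their titles. No label says that these pair mice, and their deviations correlated at 0.236 and 0.201, no more than the crossed pairs did (0.236 and 0.221). A replicate block over these 4 libraries gave 51 calls, none of them a member, and the same libraries without the block, chosen after seeing the data, gave 18. Values near 0 changed sign. Prdm1 was -0.0538 with the replicate block, -0.054 in the same libraries without it, and -0.103 without WT6 and KO5. Sdc1 was 0.0492 with the block, 0.0443 without it, and 0.0158 without WT6 and KO5. With single libraries left out, Prdm1 ranged from -0.0568 (without KO5) to 0.132, Sdc1 from -0.0881 to 0.026 (without KO5) and Tnfsf13 from -0.0528 (without WT6) to 0.336. The cause was not tested. The log2 difference of Jchain per constant region counts was 1.002 with Igha and Ighm as the denominator and 0.20 (without KO5) to 0.70 (without KO4) with single libraries left out. Depth limits Tnfrsf17, tested only without the filter on low counts (log2 fold change 2.48, unadjusted p = 0.0124, adjusted p = 0.999998, edgeR).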
